A study of Mus musculus with 4 samples.

Results

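The genes described here are 10 established transcriptional targets of the coactivator YAP and its DNA-binding partners, the TEAD factors: Ccn1, Ccn2, Ankrd1, Amotl2, Ajuba, Axl, Crim1, F3, Lats2 and Tead1. They were chosen by name, all 10 were found among the 30142 genes with a single symbol, and each was measured by 1 row of the table. RNA of 4T1 cells, a metastatic mouse mammary carcinoma line that models triple-negative breast cancer, was measured on 4 whole-transcript arrays. The arrays were 2 replicates of cells with a scramble control (NC) and 2 of cells labelled as having MCT-1 silenced by a short hairpin (shMCT-1), whose clones were selected with puromycin. The submitters describe the replicates as independent and biological. The sources used here do not say if each replicate came from a clone of its own, or if NC cells also saw puromycin. The p-values therefore set each difference against the spread between these samples, which may not cover the spread between clones. Expression values are log2 summaries, and every difference is shMCT-1 minus NC.

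YAP and its relative TAZ (the product of Wwtr1) carry the output of the Hippo pathway. When the pathway is active, the kinases Stk3 and Stk4 with their partner Sav1 activate Lats1 and Lats2, which phosphorylate YAP and TAZ and keep them out of the nucleus. When it is inactive, or when cells are spread or under tension, YAP and TAZ enter the nucleus, bind TEAD factors and raise the transcription of genes such as Ccn1, Ccn2 and Ankrd1. Amotl2, Ajuba and Lats2 act on the pathway themselves, so several targets are also part of its feedback. In breast carcinoma cells this programme is known for its links to growth, migration and metastasis. A transcript array measures the output genes and not the phosphorylation or location of YAP.

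Mcts1, which encodes MCT-1, was at 7.86 and 8.05 on NC replicates 1 and 2 and at 7.81 and 7.89 on the arrays labelled shMCT-1. The groups overlapped, and the difference was -0.10 (SE 0.122, adjusted p = 0.945, limma), so a lower level of the targeted transcript was not detected and the label is used here as a label. Epithelial markers were abundant, with 7 of 8 above a mean of 5, although 6 of the 8 had a lower mean in the arrays labelled shMCT-1. The basal keratin Krt14 was furthest apart, at 12.92 and 12.76 in NC and 11.12 and 11.20 in shMCT-1 (difference -1.68, unadjusted p = 4.62e-05, adjusted p = 0.669, limma). In contrast, the 6 measured fibroblast markers lay between 2.92 and 3.93 and the 5 endothelial markers between 3.13 and 4.24. Of the 6 macrophage markers, Cd68 and Csf1r were above 5 in mean and highest on NC replicate 1, while Ptprc, Adgre1, Lyz2 and Itgam were each under 5 in mean. The log2 of the summed macrophage markers was 10.27 and 8.53 in NC and 8.82 and 9.16 in shMCT-1. NC replicate 1 also stood apart in interferon-induced genes, with a median of 8.85 there, 5.95 on the other NC array and 6.23 and 5.47 on the arrays labelled shMCT-1. For the 10 target genes the corresponding medians were 10.57, 10.65, 10.58 and 10.61. In bulk RNA, fewer cells expressing a gene and less RNA per cell cannot be told apart.

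TEAD factors bind an element known as MCAT, and its core letters were looked for in RefSeq promoter windows (GRCm38.p6, 250 bases before to 50 after each annotated start). The windows matched 8 of the 10 genes, all but Ccn2 and Tead1. The hexamer GGAATG, or CATTCC for the other strand, was found in 7 of the 8, against 16.6% of 27025 genes with such windows. The 8 genes had 9 windows, of which 7 held it, against 14.7% of 32851 windows. Ajuba and Ankrd1 held 2 matches each, and 2 or more were found in 1.36% of all windows. The genes were listed because TEAD factors are known to act on them, so these shares describe the list and a match is no evidence of binding in these cells. The 250 bases before the starts of Ccn1 and Ankrd1 are shown because these genes are used as standard YAP reporters. Their groups of arrays also did not overlap, with shMCT-1 higher, as in Crim1 and in 19.0% of all genes. No link between the matches and that separation was tested. Shorter stretches show the matches of the other genes, with the hexamer in capitals, 5′ to 3′ on the strand of the gene.
Ccn1, chr3:145649986-145650235, minus strand: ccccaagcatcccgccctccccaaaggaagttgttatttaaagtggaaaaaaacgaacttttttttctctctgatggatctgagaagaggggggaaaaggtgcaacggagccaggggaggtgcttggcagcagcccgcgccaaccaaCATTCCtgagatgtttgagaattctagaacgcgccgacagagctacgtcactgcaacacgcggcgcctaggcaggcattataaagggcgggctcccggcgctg
Ankrd1, chr19:36119845-36120094, minus strand: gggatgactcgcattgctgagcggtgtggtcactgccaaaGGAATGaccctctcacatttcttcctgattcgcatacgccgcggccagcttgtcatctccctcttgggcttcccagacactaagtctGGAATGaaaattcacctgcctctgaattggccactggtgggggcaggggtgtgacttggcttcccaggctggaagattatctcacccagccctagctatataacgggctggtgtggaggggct
Ajuba, chr14:54577814-54577853, minus strand: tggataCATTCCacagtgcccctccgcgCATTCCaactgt
Amotl2, chr9:102717722-102717761, plus strand: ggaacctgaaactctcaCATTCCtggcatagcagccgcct
Axl, chr7:25788944-25788983, minus strand: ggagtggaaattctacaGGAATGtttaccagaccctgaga
Crim1, chr17:78200152-78200191, plus strand: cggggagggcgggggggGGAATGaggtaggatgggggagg
Lats2, chr14:57746102-57746131, minus strand: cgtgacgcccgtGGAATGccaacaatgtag

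The hexamer began 103 bases before the start in Ccn1, 210 and 123 before it in Ankrd1, 186 and 164 in Ajuba, 65 in Amotl2, 79 in Crim1 and 233 in Axl. In Lats2 it began at base 5 of the transcript, in 1 of the gene's 2 windows. F3 was the gene without it. Its window instead held 2 matches to the AP-1 heptamer TGANTCA, searched on both strands, which none of the other 7 genes had. At least 1 match was carried by 8.97% of genes with windows, and 2 or more were found in 0.46% of all windows.
F3, chr3:121723379-121723418, plus strand, with the AP-1 heptamers in capitals: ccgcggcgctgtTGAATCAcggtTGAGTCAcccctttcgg
AP-1 factors are known to act with TEAD factors at many shared regulatory regions, and serum response factor acts on several of the same genes through the CArG box. The CArG box, searched on both strands, was in 0 of the 9 windows and in 1.63% of all windows. No matches overlapped each other.

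**Figure D1:**
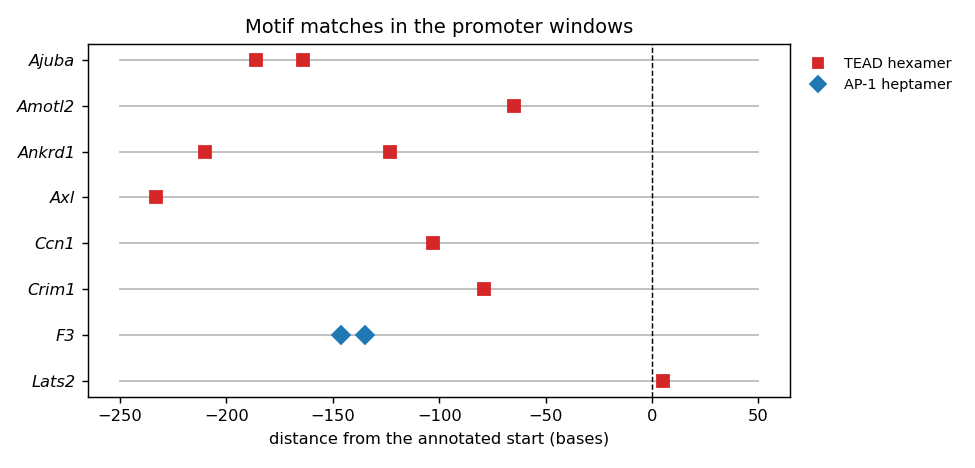
Positions of TEAD hexamers (red squares) and AP-1 heptamers (blue diamonds) in the promoter windows of 8 target genes, by distance from the annotated start in bases (horizontal axis). Grey lines are the windows, and Lats2, whose 2 windows are drawn on 1 line, is the gene with a match after the start.

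The 10 target genes as a whole showed no called difference between the groups. With limma, 0 of 10 had an adjusted p under 0.05 and 0 of 10 an unadjusted p under 0.05, against 0.0% and 5.59% of all genes, and 8.62% at the unadjusted threshold among genes with a mean of at least 5. The differences ran from -0.13 to 0.34, with 7 genes higher and 3 lower in mean in the arrays labelled shMCT-1, where 54.2% of all genes had a higher mean. Their median was 0.066, beside 0.014 for all genes, and the median absolute difference was 0.097, beside 0.10 for all genes and 0.15 for genes with a mean of at least 5. For 7 of the 10, the difference was smaller than the larger of the SDs within the 2 groups. The 95% interval held 0 for every gene, and for 8 of the 10, all but Ccn2 and F3, it lay within a 1.5-fold change in either direction. These intervals are for single genes and assume that the log2 values are not compressed, while the 10 rows lay between percentiles 82.9 and 99.2 of all rows by mean signal.

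**Figure D2:**
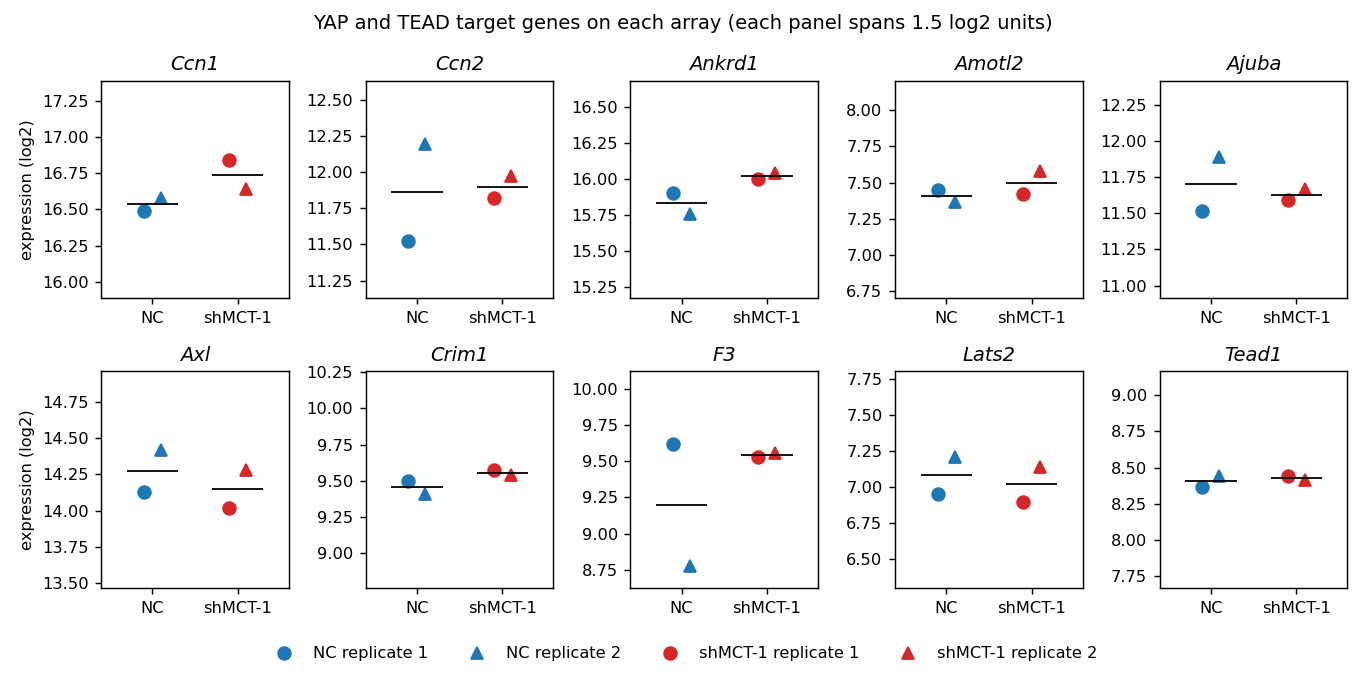
Expression (log2, vertical axis) of each target gene on the 4 arrays, NC in blue and shMCT-1 in red, circles for replicate 1 and triangles for replicate 2, with lines at group means. Each panel spans 1.5 log2 units around the gene's own mean, and the shMCT-1 arrays lie above both NC arrays for Ccn1, Ankrd1 and Crim1.

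Groups of arrays that did not overlap were seen for 3 of the 10 genes, Ccn1, Ankrd1 and Crim1, each higher in the arrays labelled shMCT-1, against 19.0% of all genes in that direction. None of the 10 lay fully lower, against 16.0% of all genes. Among genes with a mean of at least 5, which all 10 targets passed, these shares were 18.5% and 20.7%.

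The secreted CCN proteins are the most used readouts of YAP. Ccn1, a matricellular protein that binds integrins, was at 16.49 and 16.58 on NC replicates 1 and 2 and at 16.84 and 16.64 on shMCT-1 replicates 1 and 2. All 4 differences between an shMCT-1 and an NC array were positive, from 0.060 to 0.35. The mean difference was 0.21 (SE 0.125, 95% interval -0.12 to 0.53, adjusted p = 0.900, limma), a 1.15-fold higher mean. Its row was at percentile 99.2 of mean signal, where array signals can be compressed. Ccn2, the connective tissue growth factor, was at 11.52 and 12.20 in NC and 11.82 and 11.98 in shMCT-1. Both shMCT-1 values fell between the NC values, whose SD was 0.48 against 0.11 in shMCT-1. The difference was 0.038 (SE 0.246, 95% interval -0.61 to 0.68, adjusted p = 0.994, limma), so the interval ran from 0.657-fold to 1.61-fold. It was -0.30 without NC replicate 1 and 0.37 without NC replicate 2, and it was also negative, at -0.038, without shMCT-1 replicate 2, so its sign rested on single arrays. The close relatives Ccn1 and Ccn2 differed in how tightly the control arrays agreed.

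Ankrd1 and Tead1 encode nuclear proteins. Ankrd1, an ankyrin-repeat cofactor first known from heart muscle, was at 15.91 and 15.76 in NC and at 16.00 and 16.04 in shMCT-1. Both shMCT-1 arrays were above both NC arrays, by 0.096 to 0.29. The difference was 0.19 (SE 0.113, 95% interval -0.10 to 0.49, adjusted p = 0.899, limma), a 1.14-fold higher mean. This row too was very bright, at percentile 98.8. Tead1, the TEAD factor among the listed genes, was at 8.36 and 8.44 in NC and 8.44 and 8.41 in shMCT-1. Its groups overlapped, and it had the smallest difference of the 10, 0.021 (SE 0.105, adjusted p = 0.993, limma), with an interval from 0.839-fold to 1.23-fold.

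The targets that act back on the Hippo pathway had small differences of either sign. Lats2, the kinase that phosphorylates YAP, was at 6.95 and 7.21 in NC and 6.90 and 7.14 in shMCT-1, and its difference was -0.063 (SE 0.152, adjusted p = 0.985, limma). Ajuba, a LIM protein that binds and restrains LATS kinases, was at 11.52 and 11.89 in NC and 11.59 and 11.67 in shMCT-1, and its difference was -0.074 (SE 0.160, adjusted p = 0.980, limma). For both genes the groups overlapped, and the replicate 2 array was the higher one in each group. Lats2 and Ajuba lie on chromosome 14, whose 329 genes with a mean of at least 5 had a median difference of -0.17, and the part of the chromosome in these values was not tested. Apart from Crim1, described below, the other targets lie on chromosomes 3, 7, 9, 10 and 19, where that median ran from -0.044 to 0.068. Amotl2, an angiomotin-like scaffold that holds YAP at cell junctions, was at 7.45 and 7.36 in NC and 7.42 and 7.58 in shMCT-1. Of its 4 differences between arrays of the groups, 3 were positive, and the mean difference was 0.093 (SE 0.117, adjusted p = 0.951, limma).

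Surface proteins made up the rest. Axl, a receptor tyrosine kinase for the ligand GAS6, was at 14.13 and 14.42 in NC and 14.02 and 14.28 in shMCT-1. The arrays interleaved, with 1 of 4 differences positive, and the mean difference was -0.13 (SE 0.163, 95% interval -0.55 to 0.30, adjusted p = 0.952, limma). Crim1, a transmembrane protein that binds BMPs, was at 9.50 and 9.41 in NC and 9.57 and 9.54 in shMCT-1. Its groups did not overlap but lay within a narrow range, and the difference was 0.10 (SE 0.106, 95% interval -0.18 to 0.38, adjusted p = 0.936, limma). Crim1 lies on chromosome 17, whose 468 genes with a mean of at least 5 had a median difference of 0.093, and the part of the chromosome was not tested.

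F3, or tissue factor, the cell-surface starter of blood coagulation, had the largest difference of the 10 and the widest interval. It was at 9.62 and 8.78 on NC replicates 1 and 2 and at 9.53 and 9.56 on shMCT-1 replicates 1 and 2. NC replicate 2 was thus the low array, and the other 3 lay between 9.53 and 9.62. The difference was 0.34 (SE 0.294, 95% interval -0.43 to 1.11, adjusted p = 0.918, limma), or 1.27-fold with bounds of 0.744-fold and 2.16-fold. Without NC replicate 1 it was 0.77, with an unadjusted p of 0.00563 and an adjusted p of 1.0 in limma, while 2.51% of all genes then had an unadjusted p under 0.05. Without NC replicate 2 it was -0.080. The value therefore depended on which control array was kept.

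Spread between the replicates was wider in NC than in shMCT-1 for 8 of the 10 genes, with median SDs of 0.14 and 0.081. Over genes with a mean of at least 5 these medians were 0.14 and 0.12. In 4 genes, Ccn2, Ajuba, Axl and Lats2, the replicate 2 array was above the replicate 1 array in both groups, and in Crim1 the replicate 1 array was the higher in both. Same-numbered arrays also deviated together across rows with a mean of at least 5 (r = 0.68), so such an order is not particular to these genes. The shares of all genes with such an order were not counted. NC replicate 1, the array high in interferon-induced genes, differed from the mean of the other 3 by -0.47 in Ccn2 and -0.20 in Ajuba and Ccn1. It differed by 0.34 in F3 and by -0.13 to -0.0083 in the remaining 6. In F3 the mean of the other 3 was lowered by NC replicate 2, at 8.78. NC replicate 1, at 9.62, was there close to the shMCT-1 arrays, at 9.53 and 9.56. The part of the interferon state of NC replicate 1 in these values was not tested.

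**Figure D3:**
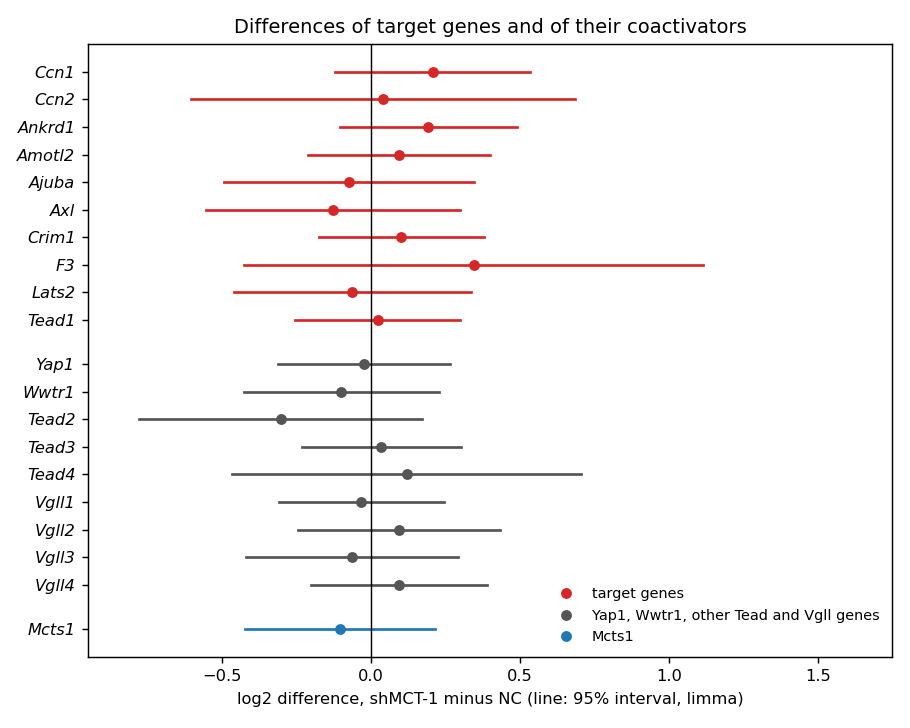
Log2 difference, shMCT-1 minus NC (horizontal axis; points, with 95% intervals of limma as lines), of the 10 target genes (red), of Yap1, Wwtr1 and the other Tead and Vgll genes (grey) and of Mcts1 (blue). Every interval crosses 0, and those of F3, Ccn2 and Tead4 are the widest.

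The genes for YAP, TAZ, the TEAD factors and the VGLL cofactors, which compete for or share TEAD binding, were also without a called difference. Of 10 measured genes, Tead1 included, 5 were higher and 5 lower, with 0 past an adjusted or an unadjusted p of 0.05 in limma and a median of -0.0018. Yap1 was at 8.41 and 8.54 in NC and 8.44 and 8.46 in shMCT-1, a difference of -0.025 (SE 0.110). Wwtr1 was at 9.05 and 8.90 in NC and 8.79 and 8.96 in shMCT-1, a difference of -0.10 (SE 0.125). Both pairs of groups overlapped. The other TEAD genes differed by -0.30 (Tead2, SE 0.181), 0.034 (Tead3, SE 0.102) and 0.12 (Tead4, SE 0.224). Those of the VGLL genes were -0.033 for Vgll1, 0.092 for Vgll2, -0.064 for Vgll3 and 0.092 for Vgll4, and Vgll1 and Vgll2 were under a mean of 5. The adjusted p ran from 0.899 to 0.993 in limma over these 10 genes.

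Upstream, 19 of 20 listed Hippo kinases and scaffolds were measured, among them Lats2, Amotl2 and Ajuba. The count was 8 higher and 11 lower, the median -0.014, and 0 passed an adjusted p of 0.05 in limma. Groups did not overlap for 4 genes in the higher direction and 5 in the lower, against 19.0% and 16.0% of all genes. An unadjusted p under 0.05 was reached by 1 gene in the higher direction, against 2.32% of all genes, and by 0 in the lower. That gene was Stk4, the MST1 kinase at the head of the pathway, which was at 9.28 and 9.42 in NC and 9.64 and 9.78 in shMCT-1. Its difference was 0.36 (SE 0.120, unadjusted p = 0.0323, adjusted p = 0.882, limma), with the groups apart. Its partner Sav1 differed by 0.19 (SE 0.122), the angiomotin Amot by 0.50 (SE 0.266) and the kinase Taok3 by -0.26 (SE 0.156), none past either threshold.

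Beyond the listed 10, 14 further genes of a published YAP and TAZ target signature were all measured, Ptpn14 of the scaffold list included. Here 3 were higher and 11 lower, with a median of -0.073, while 54.2% of all genes had a higher mean. Groups did not overlap for 5 genes in the lower direction and 1 in the higher, against 16.0% and 19.0% of all genes. An adjusted p under 0.05 was reached by 0 genes in limma. The median of the 10 target genes was 0.066, so the lists lay on opposite sides of 0, and whether they differ was not tested. Unadjusted p under 0.05 was reached by 2 in the lower direction, against 3.28% of all genes. Dock5, an exchange factor for Rac, was at 11.04 and 10.86 in NC and 10.60 and 10.55 in shMCT-1, with a difference of -0.37 (SE 0.117, unadjusted p = 0.0268, adjusted p = 0.882, limma). Like Lats2 and Ajuba it lies on chromosome 14, with its median of -0.17, and the part of the chromosome was not tested. Foxf2, a forkhead factor, differed by -0.34 (SE 0.105, unadjusted p = 0.0249, adjusted p = 0.882, limma) at values from 2.77 to 3.17, where signal is dim. Gadd45a, a stress-induced growth arrest gene, differed by -0.52 (SE 0.564), with NC replicate 1 at 7.83 and the other arrays at 6.17, 6.66 and 6.30. Asap1, a regulator of focal adhesions, differed by 0.25 (SE 0.125), and 5 of the 14 genes were under a mean of 5.

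Serum response factor and its MRTF coactivators respond to actin and share several targets with YAP. Of 16 genes of that programme 6 were higher and 10 lower, with a median of -0.022, and 0 passed an adjusted or an unadjusted p of 0.05 in limma. Vcl, the adhesion protein vinculin, was at 13.16 and 12.86 in NC and 12.79 and 12.49 in shMCT-1, a difference of -0.37 (SE 0.171, unadjusted p = 0.0833, adjusted p = 0.886, limma). Srf itself was at 8.15 and 8.35 in NC and 8.43 and 8.71 in shMCT-1, a difference of 0.32 (SE 0.151). For both genes the groups did not overlap, as for 2 of the 16 genes in the higher direction and 3 in the lower. Among all genes 19.0% lay fully higher and 16.0% fully lower. Vcl also lies on chromosome 14, with its median of -0.17, and Srf on chromosome 17, with its median of 0.093. The part of the chromosomes in these values was not tested. The cofactor Fhl2 differed by -0.30 (SE 0.116) and the immediate early gene Fos by -0.24 (SE 0.188), and 9 of the 16 genes, Fos among them, were under a mean of 5.

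**Figure D4:**
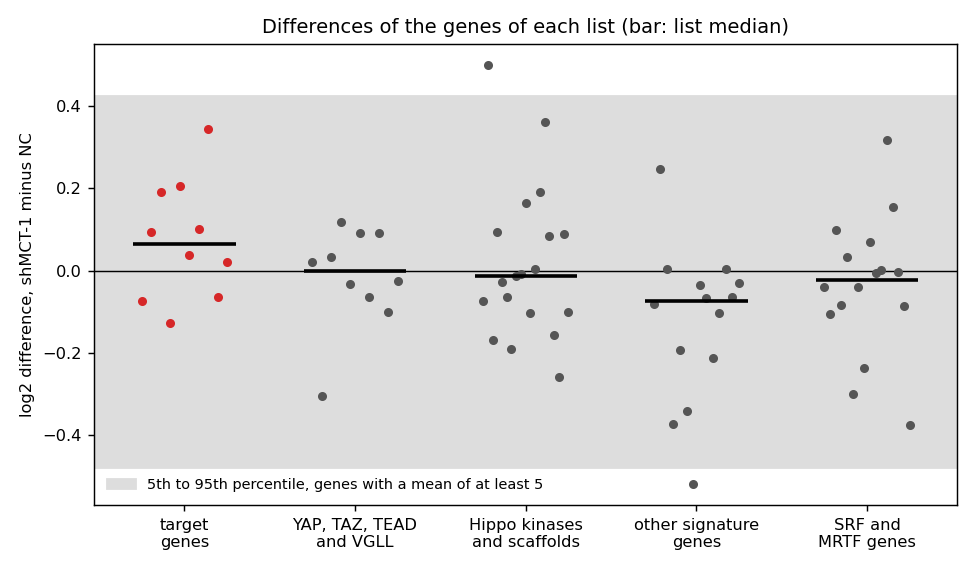
Log2 difference, shMCT-1 minus NC (vertical axis), of each measured gene (points) in 5 lists, with list medians as bars and the 5th to 95th percentile of genes with a mean of at least 5 in grey (-0.48 to 0.42). The 10 target genes (red) lie within the grey band, and a gene of 2 lists is drawn in both.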

How the data were processed

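Biotin-labelled material made from the RNA was hybridised to 4 arrays. The deposited values are log2 expression summaries, which the authors made with Affymetrix Expression Console and RMA, per the submitters' processing notes. The sources used here give no version, option or genome build. The values ran from 1.29 to 19.9 and were used as deposited, with 0 value columns left out. Dim and very bright signals may be compressed. Array medians lay between 3.68 and 3.73.

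Of 65956 rows, 30604 had 1 gene symbol, 2146 had several and 33206 were not in the probe table. For 827 rows a newer symbol was taken from the RefSeq table by gene ID. The brightest row stood for each of 30142 genes. The test was limma 3.58.1 (R 4.3.3), run over the 65956 rows (2 residual degrees of freedom, prior 2.72), two-sided, with Benjamini-Hochberg adjustment over all rows and a threshold of 0.05. Calls at an unadjusted p under 0.05 are descriptive. The fit was tested on simulated data. Their errors were independent, without the shared deviations of same-numbered arrays given below, so no result here rests on that test.

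Members and lists were chosen with earlier results of these data known. Named were all members, Mcts1, the YAP, TAZ, TEAD and VGLL genes and, from the other 3 pathway lists, the 4 genes with the largest differences. The replicate numbers did not count as pairs. Same-numbered arrays deviated together (r = 0.42 across all rows and 0.68 across rows with a mean of at least 5, which are not independent replicates), but nothing in the labels says what a number shares.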

Additional observations from a re-analysis of the deposited data

How the results depend on the processing

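The fit was repeated under 13 other settings, and the number of target genes with an adjusted p under 0.05 was 0 under each, including with any 1 array left out. The number with an unadjusted p under 0.05 ran from 0 to 1 with 1 array left out, where the 1 was F3 without NC replicate 1, and was 0 in the other 9 settings. Leaving out 1 array gave 5 to 9 of 10 genes higher and a median difference of 0.024 to 0.094, and the lone array of a group was then assumed to vary like the other group. With the replicate number as a block, the number of genes past the adjusted threshold stayed at 0, that past the unadjusted one at 0, and the differences were the same by construction, with 7 genes higher. Further quantile normalization turned Ccn2 to -0.015 and Tead1 to -0.0012, and centring on array medians turned Tead1 to -0.0046. Under these scalings the median difference was 0.042 and 0.040 in place of 0.066, and 5 and 6 genes were higher in place of 7. With 1 array left out, 6 genes changed sign: Ccn2 ran from -0.30 to 0.37, Ajuba from -0.26 to 0.11, Axl from -0.27 to 0.017, F3 from -0.080 to 0.77, Lats2 from -0.19 to 0.063 and Tead1 from -0.019 to 0.062. The other 4, Ccn1, Ankrd1, Amotl2 and Crim1, kept theirs under all 13 settings, but with 1 array left out their differences also moved, from 0.10 to 0.31 for Ccn1, 0.12 to 0.27 for Ankrd1, 0.013 to 0.17 for Amotl2 and 0.058 to 0.15 for Crim1. Beyond the arrays left out, the causes were not tested. The number of arrays limits the precision of every value.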
